A study of Mus musculus with 21 samples.

Results

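The genes described here encode the proteins of the cytosolic ribosome in 10-day-old mouse testis. They were chosen by name: protein-coding genes called Rpl or Rps with a number and at most 1 letter, the stalk genes Rplp0, Rplp1 and Rplp2, the laminin receptor gene Rpsa, and the copies Rps27rt, Rpl36al and Rpl22l1, without the ubiquitin fusion gene Rps27a. The rule found 83 of the 32643 genes of the deposited table, 51 for the large and 32 for the small subunit, and all 83 were among the 20254 genes with enough reads to be tested. The rule itself reads no expression value, but the group was put forward with earlier results on the same libraries known. Counts of members, medians over members and summed levels are therefore descriptions and carry no p-value.

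The study compared testis RNA of wild-type (WT) mice and of mice lacking FXRα (FXRα-/-, here KO), the bile acid receptor encoded by Nr1h4, after exposure to vehicle, to BPA (bisphenol A, used in making plastics and weakly oestrogenic) or to stigmasterol (a plant sterol). All mice were of mixed strain, given as 50% 129sv and 50% C57Bl6, and were sampled on postnatal day 10, each library coming from a single animal. There were 4 libraries in each WT group (vehicle, BPA, stigmasterol) and 3 in each KO group (vehicle, BPA, stigmasterol). The sources used here do not give the dose, route or duration of exposure, the litters or the deleted part of Nr1h4.

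Libraries held between 35459523 and 61498855 counted reads, of which 714948 to 1429030 fell on the 83 genes. Nr1h4 itself was low throughout, at 0.241 to 0.868 CPM (counts scaled to library size, the usual depth unit) in WT libraries and 0.172 to 0.492 CPM in KO libraries, so its level does not separate the genotypes; without knowing the deleted part, these reads do not check the labels. The testis identity was met by Sertoli cell markers, which summed to between 3640 and 6790 CPM in every library. In 9 libraries Cdh16, an epithelial cadherin of the epididymis and kidney, reached 10 CPM or more, and in 4 libraries the liver gene Alb or the fat gene Car3 did so. These libraries were kept, and values without them are given beside the main calls that they changed.

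Ribosomal proteins are needed in near-equal numbers, since each ribosome holds 1 copy of nearly all of them, and their genes are among the most highly transcribed in growing cells. Their messenger RNAs commonly begin with a run of pyrimidines at the very 5′ end, the 5′ terminal oligopyrimidine tract, through which mTOR signalling and the RNA-binding protein LARP1 set their translation and stability. In male germ cells the X chromosome is silenced during meiosis, and several X-linked ribosomal protein genes have autosomal copies that are transcribed in the testis, Rpl10l for Rpl10 and Rpl39l for Rpl39 among them.

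The start sites of the members that the comparisons below turn on are shown first, because the pyrimidine run is the feature this gene family is best known for. Each line gives 30 bases before and 20 bases after the transcription start listed by RefSeq for GRCm38.p6, 5′ to 3′ on the coding strand, with capitals marking an uninterrupted run of at least 8 C or T.
Rps18 (chr17:33955646-33955695, minus strand): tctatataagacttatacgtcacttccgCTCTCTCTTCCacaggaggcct
Rpl38 (chr11:114668550-114668599, plus strand): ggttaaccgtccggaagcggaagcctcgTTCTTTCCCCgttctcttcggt
Rpl5 (chr5:107900498-107900547, plus strand): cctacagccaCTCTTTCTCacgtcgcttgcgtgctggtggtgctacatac
Rpl31 (chr1:39367821-39367870, plus strand): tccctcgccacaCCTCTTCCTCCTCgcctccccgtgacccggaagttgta
Rpl10a (chr17:28328441-28328490, plus strand): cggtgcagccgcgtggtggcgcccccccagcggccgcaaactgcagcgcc
Rps27 (chr3:90213629-90213678, minus strand): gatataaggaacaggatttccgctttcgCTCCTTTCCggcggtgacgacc
Rps27rt (chr9:114982720-114982769, minus strand): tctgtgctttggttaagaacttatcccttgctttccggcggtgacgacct
Rpl13a (chr7:45128726-45128775, minus strand): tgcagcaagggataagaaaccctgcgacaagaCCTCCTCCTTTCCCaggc
Rpl10l (chr12:66284382-66284431, minus strand): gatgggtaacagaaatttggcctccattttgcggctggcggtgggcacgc
Rps18, Rpl38, Rps27 and Rpl13a have the run at or next to the listed start, whereas in Rpl5 and Rpl31 it lies upstream of it. Rps27rt, a single-exon copy of Rps27, shares the 19 bases ctttccggcggtgacgacc with its parent gene but holds no run of 8. Rpl10l, also single-exon, and Rpl10a hold none either.

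RefSeq listed a start for 63 of the 83 genes. Of these, 30 genes (47.6%) had a run of at least 8 pyrimidines (C or T, coding strand only) within 20 bases on either side of a listed start, compared with 18.4% of all 27025 genes in the same table. The responses of members with and without the run had nearly the same medians. In the stigmasterol comparison in WT testis the median log2 fold change was -0.23 in the 30 members with a run and -0.23 in the 33 without one. A listed start can lie some bases from the one used in testis, so the absence of these letters says nothing about how a transcript is regulated.

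Levels were first compared between genes on the deposited length-scaled signal, which is the normalized read count divided by the gene's length in kb. Rpl13a had the highest level (49090 ± 4551 normalized reads per kb, SD over 21 libraries), followed by the stalk genes Rplp0 (45500 ± 3211) and Rplp1 (38700 ± 4055) and by Rps14 (37250 ± 3680), a small subunit protein. Rplp2, the other acidic stalk protein, was close to them at 35140 ± 3308. The median of the 83 genes was 14020. Rpl13a and Rplp0 differed by less than the SD of Rpl13a, and so did Rplp1 and Rps14.

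The lowest level was that of Rpl3l, a paralog of Rpl3 known from heart and skeletal muscle, with 92.81 ± 23.5 normalized reads per kb and 2.21 CPM on average. Next came Rpl10l (1338 ± 149), Rpl39l (2503 ± 425) and Rpl24 (2675 ± 307). Rpl24 encodes a constitutive large subunit protein, and 51.8% of the 50-base windows of its transcripts also occur in transcripts of other genes, 43.8% in those of Gm28037 alone. Gm28037 itself had at most 0.0894 CPM in any library. The part that shared sequence has in the low value of Rpl24 was not tested.

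Without length scaling the order was partly different. Rpl4, a structural protein of the large subunit, led at 1095 CPM, and 7 of the 10 highest members per kb were among the 10 highest by CPM. Deposited gene lengths ranged from 0.255 kb for Rps27 to 1.861 kb for Rpsa, with a median of 0.643 kb. Rpsa, whose protein is a small subunit component also described as a laminin receptor precursor, ranked 17 by CPM (346 CPM) and 70 per kb (8080 ± 651). Only 3 of the members were among the 50 most abundant genes of the libraries.

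**Figure D1:**
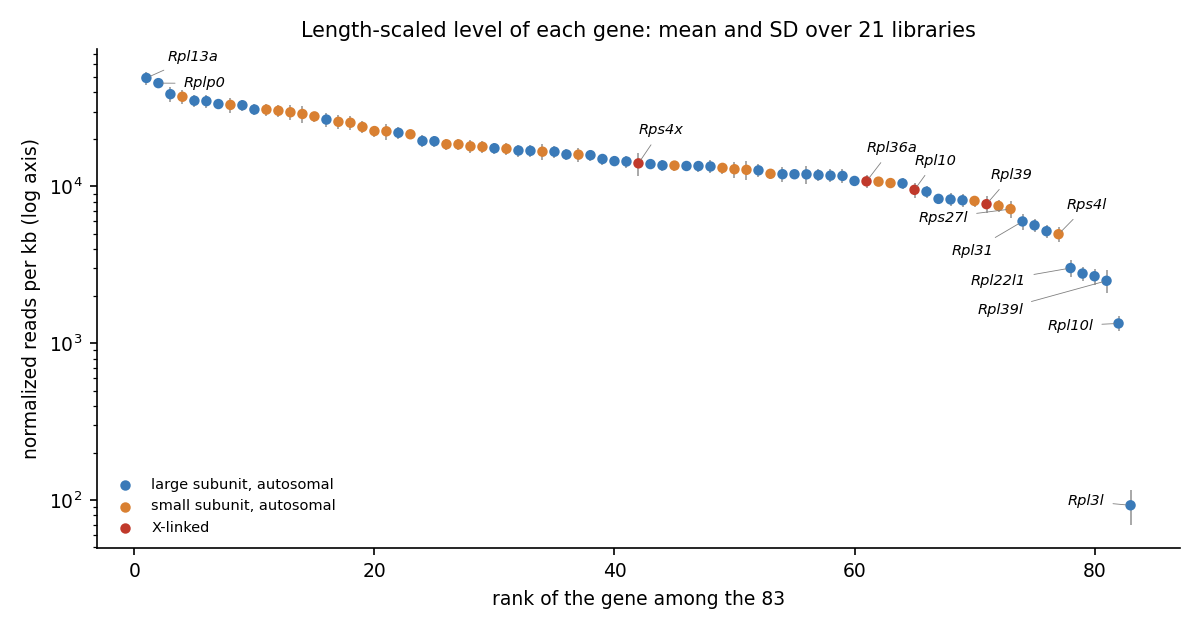
Length-scaled level of each of the 83 genes, ranked, on a log axis in normalized reads per kb. Points are means over 21 libraries, bars are SD, and colours mark subunit and X linkage. Apart from Rpl3l at 92.81, the genes lie between 1338 and 49090, with the copies Rpl10l and Rpl39l near the lower end.

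The 4 X-linked members were transcribed above their autosomal copies on the same per-kb scale. Rps4x, a small subunit protein, stood at 14020 ± 2338 and its single-exon copy Rps4l at 4957 ± 528. Rpl10, which lies at the base of the stalk next to the tRNA path, stood at 9505 ± 1054 and Rpl10l at 1338 ± 149. For Rpl39, a small protein at the exit tunnel, the values were 7705 ± 921 against 2503 ± 425 for Rpl39l, and for Rpl36a they were 10770 ± 1048 against 2783 ± 271 for Rpl36al. In each pair the difference exceeded the SD of both genes.

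Autosomal relatives were less uniform. Rpl3, which lies at the peptidyl transferase centre, had 14490 ± 1021 normalized reads per kb. Rpl22, an RNA-binding protein of the large subunit, had 19470 ± 1757, and its paralog Rpl22l1 had 3017 ± 383. Rps27 (12750 ± 1745) and Rps27rt (12860 ± 1545) were alike, and Rps27l, a paralog known as a p53 target, was lower at 7169 ± 853. Rps27 and Rps27rt cannot be separated with confidence, since 91.1% of the 50-base windows of Rps27rt occur in Rps27 transcripts, and windows of Rps27 occur in Rps27rt in turn.

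The members that varied most between animals of 1 group were copies and an X-linked gene, though other copies varied little. The pooled within-group SD on the log2 scale was 0.351 for Rpl3l, 0.230 for Rpl39l, 0.217 for Rps4x and 0.186 for Rpl10l, against a median of 0.0874 over the 83 genes and 0.215 over all tested genes. Rps27rt (0.0596) and Rpl31 (0.0597) varied least.

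For Rps4x the WT vehicle libraries T66, T71, T79 and T81 had 259.9, 233.1, 293.8 and 362 CPM. The WT stigmasterol libraries T78, T98, T118 and T119 had 282.5, 187.7, 232.7 and 275.1 CPM. In KO stigmasterol it had 229.2 CPM in T10, 252.7 CPM in T15 and 329.9 CPM in T93. The spread inside these groups was as wide as the distance between them. Genes of meiotic prophase (21 of 22 listed genes in the table) summed to 748 CPM in T81, 3480 CPM in T98 and 1470 CPM in T93. Whether the X chromosome was being silenced in the germ cells at postnatal day 10 was not tested. In 5 of the 6 groups the library lowest in these genes was the highest in Rps4x, and the same count held for Rpl10. For Rpl39 and for Rpl36a it was 3 of 6. T81, T78, T110, T117 and T93 were each lowest of their group in these meiotic genes. The autosomal Rps9 was highest of its group in all of them, at 657.1, 545.8, 527, 555.7 and 632.9 CPM. In WT BPA it was not, with 516.3 CPM in T61 and 538.7 CPM in T60. Over all 83 members, T110, T93 and T78 were highest in their groups for 56, 47 and 38. T81 and T117 were highest for only 12 and 14 members, and lowest for 31 and 42. Whether the order was particular to X-linked genes was not tested. The part that the stage of the germ cells has in these values was not tested, and in whole testis fewer cells of a type and less RNA per cell cannot be told apart.

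Summed over all 83 genes, the share of counted reads was 2.493%, 2.27%, 2.372% and 2.201% in the WT vehicle libraries T66, T71, T79 and T81. The WT BPA libraries gave 2.251% in T60, 2.022% in T75, 2.139% in T61 and 2.08% in T74. The WT stigmasterol libraries gave 2.081% in T78, 1.834% in T98, 1.984% in T118 and 2.016% in T119. Every WT stigmasterol library was below every WT vehicle library, while the BPA group overlapped the vehicle group through T60.

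In the KO vehicle libraries T1, T90 and T110 the share was 2.05%, 2.146% and 2.235%. In the KO BPA libraries T25, T83 and T117 it was 2.235%, 2.242% and 2.157%. In the KO stigmasterol libraries T10, T15 and T93 it was 2.195%, 2.447% and 2.464%. Here the stigmasterol libraries T15 and T93 were above all vehicle libraries and T10 was among them, so that the order of vehicle and stigmasterol was opposite to that in WT testis. Group means were 2.33% ± 0.127 (SD, n = 4), 2.12% ± 0.0979 (n = 4) and 1.98% ± 0.105 (n = 4) in WT vehicle, BPA and stigmasterol, and 2.14% ± 0.0923, 2.21% ± 0.0470 and 2.37% ± 0.151 (n = 3 each) in the KO groups. The 95% Wilson interval of a single share, which covers counting error only, was narrow (1.83% to 1.84% in T98), so the spread is between animals and libraries.

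**Figure D2:**
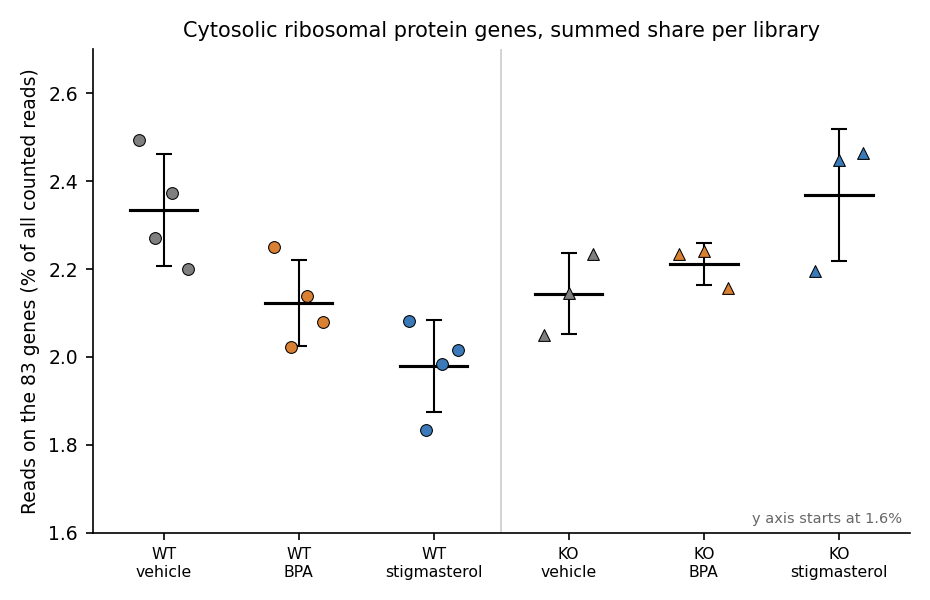
Reads on the 83 genes as a percentage of all counted reads, by group, with the axis starting at 1.6%. Points are libraries, horizontal lines are group means and bars are SD. In WT the stigmasterol libraries (1.834% to 2.081%) lie below the vehicle libraries (2.201% to 2.493%), and in KO the stigmasterol libraries reach 2.464%.

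The shift was spread over the whole group of genes. WT vehicle had the highest of the 6 group means for 49 of the 83 genes and KO stigmasterol for 32, whereas WT stigmasterol had the lowest for 56. Single libraries carried much of the spread inside groups: T98 was the lowest WT stigmasterol library for 67 members, T75 the lowest WT BPA library for 67, T10 the lowest KO stigmasterol library for 78 and T66 the highest WT vehicle library for 53. Neither these counts nor those of group means are given here for all tested genes. Short genes outside the group also moved in comparisons with WT vehicle, as given below. The first principal component of the members' log2 levels held 57.8% of their variance, compared with 27.4% for all tested genes.

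The first comparison asks how the loss of FXRα changed these genes without exposure. In KO vehicle testes, 4 members fell and none rose by edgeR's quasi-likelihood test (adjusted p below 0.05), while 2.92% of all tested genes were called, 1.24% higher and 1.68% lower. DESeq2 called 22 members (2.72% of the genes it tested higher, 4.26% lower) and limma-voom 5. Here and below, the share of all genes called is not given for limma-voom or for fits that leave out libraries. The members that fell were Rps18 and the large subunit genes Rpl38, Rpl23a and Rpl5. Of the 83 genes 77 had negative log2 fold changes, with a median of -0.16, while the median of all tested genes was 0.01.

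Rps18, a protein of the head of the small subunit, had 363.3, 346, 361.2 and 342.2 CPM in the WT vehicle libraries and 254, 272 and 280.6 CPM in the KO vehicle libraries. All KO vehicle libraries were below all WT vehicle libraries. The log2 fold change was -0.39 (SE 0.0745, adjusted p = 0.0059), and the call was kept in 6 of 7 fits that left out 1 library. In the exposed KO groups Rps18 had 339.9, 335.9 and 297.3 CPM under BPA and 274.5, 331.6 and 325.7 CPM under stigmasterol. The stigmasterol library T10 (274.5 CPM) was within the KO vehicle range, and all exposed KO libraries were below the WT vehicle libraries. All exposed WT libraries were below them too, at 312.7 to 336 CPM under BPA and 267.6 to 325.9 CPM under stigmasterol. Group means in WT and KO were 323.4 and 324.3 CPM under BPA, and 300.9 and 310.6 CPM under stigmasterol.

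Rpl38, which in mice is known for its part in translating Hox messages, had 123, 109.3, 112.8 and 109.7 CPM in WT vehicle and 89.17, 95.35 and 92.33 CPM in KO vehicle (log2 fold change -0.30, SE 0.0768, adjusted p = 0.0397). Rpl23a, a protein at the exit of the peptide tunnel, had 142.7, 134.2, 154.6 and 159 CPM against 116.5, 120.6 and 127 CPM (-0.28, SE 0.0711, adjusted p = 0.0371). Rpl5, which binds 5S rRNA and can bind Mdm2, had 250.5, 247.3, 257.2 and 259.3 CPM against 219.8, 214.5 and 219.2 CPM (-0.22, SE 0.0563, adjusted p = 0.0409). In none of these genes did the groups overlap. Their calls were less stable than that of Rps18, being kept in 1, 2 and 0 of 7 fits that left out a library. All 4 calls were lost when the 9 Cdh16 libraries were left out, with an adjusted p of 0.58 for Rps18 and 0.985 for the other 3, at log2 fold changes of -0.40 for Rps18, -0.28 for Rpl38, -0.27 for Rpl23a and -0.24 for Rpl5. Without the 4 Alb or Car3 libraries Rps18 was still called (adjusted p = 0.018), and Rpl38 (0.0533), Rpl23a (0.0771) and Rpl5 (0.0869) were not.

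Counted by overlap, 44 members were lower in every KO vehicle library than in every WT vehicle library (8.07% of all tested genes) and 2 were higher in every one, Rpl10a and Rpl3l (8.25% of all tested genes). Sertoli cell markers moved with this comparison: 4 of the 15 listed genes fell, none rose, and the list summed to 4450 to 6790 CPM in WT vehicle and 4090 to 4180 CPM in KO vehicle, with every marker read in both groups. Meiotic prophase markers summed to 748 to 2460 CPM and 1700 to 3020 CPM, with 20 of 21 log2 fold changes positive (median 0.59) and 1 called. Epididymal markers summed to 63.6 to 107 CPM and 101 to 349 CPM, with 10 of 10 tested genes positive (median 2.13) and 1 called. The part of cell composition in the lower levels of the ribosomal protein genes was not tested.

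BPA against vehicle in WT testis called no member and no other gene (0.0% of all tested genes in either direction). All members but Rpl3l had negative log2 fold changes, with a median of -0.19, and 61 of the 83 had an unadjusted p below 0.05, compared with 18.8% of all tested genes. The smallest adjusted p of a member was 0.0609. The choice of test decided the count: DESeq2 called 35 members lower and none higher (4.72% of the genes it tested lower, 1.81% higher), and limma-voom called 0.

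The 3 members with the smallest p were Rpl31, Rpl41 and Rps27rt. Rpl31, a protein near the exit of the peptide tunnel, had 146.8, 131.4, 139.4 and 136.6 CPM in the BPA libraries T60, T75, T61 and T74, and 166.3, 161.8, 168.2 and 160.8 CPM in the WT vehicle libraries (log2 fold change -0.25, SE 0.0492). Rpl41, the smallest ribosomal protein, had 331.9, 277.1, 281.3 and 289.1 CPM against 416.7, 382.3, 340.1 and 362.3 CPM (-0.35, SE 0.0726). Both genes were lower in all 4 BPA libraries than in any vehicle library. Sertoli cell markers moved with this comparison as well: all 15 had negative log2 fold changes, none called, and they summed to 3890 to 4800 CPM under BPA. All 10 tested epididymal markers had positive values (median 1.31), none called. Liver markers summed to 10.0 to 1080 CPM under BPA, highest in T61, and to 13.5 to 16.3 CPM in WT vehicle. The part of other cells in the BPA result was not tested.

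In all, 46 members were lower in every BPA library and none was higher in every one, with 4.4% and 3.69% of all tested genes.

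Stigmasterol against vehicle in WT testis called 1 member, Rpl31, and no other gene of the table (0.00494% of all tested genes lower, 0.0% higher). Rpl31 had 135.1, 125.1, 124.7 and 128.5 CPM in the stigmasterol libraries T78, T98, T118 and T119, all below the WT vehicle libraries (log2 fold change -0.36, SE 0.0493, adjusted p = 0.0174). The call was kept in 1 of 8 fits that left out a library, that without T78, and its log2 fold change stayed between -0.38 and -0.34. It was lost without the 4 Alb or Car3 libraries (adjusted p = 0.136) and without the 9 Cdh16 libraries (adjusted p = 0.908), at log2 fold changes of -0.36 and -0.37.

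The other members had mostly negative values too. The median log2 fold change was -0.23, again all members but Rpl3l were negative, and 74 of the 83 had an unadjusted p below 0.05, compared with 8.26% of all tested genes. In 61 members every stigmasterol library was below every vehicle library (1.90% of all tested genes), and in none was every one above (1.54%). The count was also 61 without T98, the library with the lowest share, but leaving out a library cannot lower a count of this kind. DESeq2 called 30 members lower (0.508% of the genes it tested lower, 0.215% higher) and limma-voom called 1. Meiotic prophase markers summed to 1010 to 3480 CPM and Sertoli markers to 4280 to 6180 CPM in these libraries, overlapping the vehicle libraries in both cases. All 21 tested meiotic markers had positive log2 fold changes (median 0.37) and 11 of the 15 Sertoli markers negative ones (median -0.10), none of them called. The part of germ cell stage or cell composition in the members' values was not tested.

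**Figure D3:**
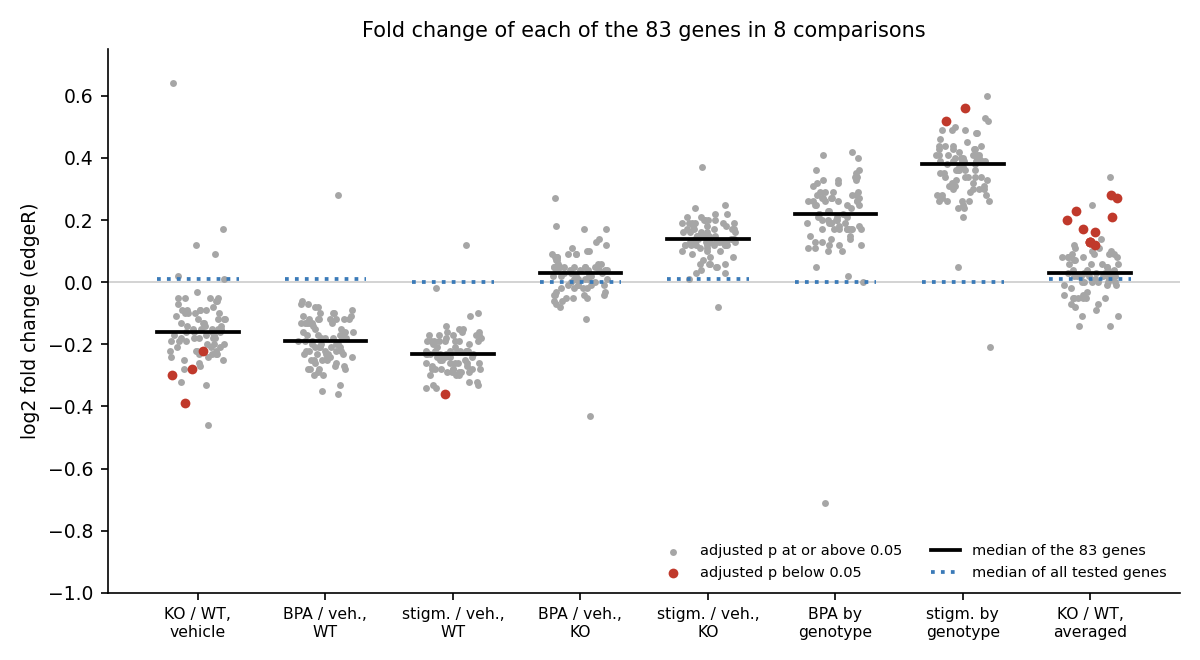
log2 fold change of each of the 83 genes in 8 comparisons (edgeR). Red points passed an adjusted p of 0.05, black bars are medians over the 83 genes and dotted bars medians over all tested genes. The medians are -0.16, -0.19 and -0.23 in the first 3 comparisons, all of which use the WT vehicle libraries, and 0.14 for stigmasterol in KO.

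The comparisons of KO with WT under vehicle and of BPA and of stigmasterol with vehicle in WT, like both interactions below, share the 4 WT vehicle libraries, the group in which most members were highest. Their values are therefore not independent of each other. Without T66, the WT vehicle library that was highest for 53 members, edgeR called 2 members in the KO comparison, 0 for BPA and 0 for stigmasterol.

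In KO testis BPA and stigmasterol called no member. For BPA (0.0148% of all tested genes called, 0.00494% higher and 0.00987% lower) the median of the members was 0.03, 59 of 83 were positive and 1, Rps18, had an unadjusted p below 0.05 (log2 fold change 0.27, SE 0.0791, adjusted p = 0.896). DESeq2 and limma-voom also called 0 (DESeq2: 0.036% of the genes it tested higher, 0.0257% lower). The level of Rps18 lay above the KO vehicle libraries in all 3 BPA libraries, as given above, without passing the test. Rpl10a, a protein of the L1 stalk, was lower in every KO BPA library (210.4, 225.9 and 237 CPM) than in the KO vehicle libraries (249, 245.2 and 238.3 CPM), with a log2 fold change of -0.12 (adjusted p = 0.896), and Rps2, at the entry of the mRNA channel, had 0.17 (adjusted p = 0.896). In all, 4 members were higher and 1 was lower without overlap, with 5.79% and 5.35% of all tested genes.

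For stigmasterol in KO testis (0.0% of all tested genes called in either direction) 82 of the 83 log2 fold changes were positive, with a median of 0.14. The unadjusted p was below 0.05 for 33 members, compared with 3.85% of all tested genes, and DESeq2 (0.00494% of the genes it tested higher) and limma-voom called 0. In 23 members every stigmasterol library was above every vehicle library (4.63% of all tested genes), and in none was every one below (4.96%).

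Rps27rt had 130.2 CPM in T10, 133.6 CPM in T15 and 132.5 CPM in T93 under stigmasterol, and 108.3, 113.6 and 113.3 CPM in the KO vehicle libraries (log2 fold change 0.24, SE 0.0568, adjusted p = 0.981). Rpl31 had 167.5, 180.4 and 182.8 CPM against 144.2, 153.9 and 163.4 CPM (0.20, SE 0.0567, adjusted p = 1.0). Rpl9, a large subunit protein near the stalk base, had a value of 0.22 (SE 0.0689, adjusted p = 1.0). In all 3 genes the groups did not overlap, yet none passed the test over all genes. The KO stigmasterol libraries also differed widely in epididymal markers, which summed to 385, 105 and 697 CPM in T10, T15 and T93, and 2 of the 3 carried Cdh16 at 10 CPM or more; the part of this tissue in the ribosomal protein levels was not tested.

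The interaction asks whether an exposure acted differently in the 2 genotypes. For stigmasterol, 2 genes of the whole table were called, both higher in KO relative to WT and both members: Rpl31 and Rps27rt (0.00987% of all tested genes). The log2 difference between the stigmasterol effects in KO and WT was 0.56 for Rpl31 (SE 0.0751, adjusted p = 0.012) and 0.52 for Rps27rt (SE 0.0752, adjusted p = 0.0151). Rps27rt had 91.82, 94.83, 96.05 and 94.3 CPM in the WT stigmasterol libraries and 119.1, 111.9, 110.4 and 116.5 CPM in the WT vehicle libraries, so that in WT it was lower in all stigmasterol libraries and in KO higher in all of them. The order was the same for Rpl31.

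These calls depended on single libraries. Leaving out 1 library kept the call of Rpl31 in 10 of 14 fits and that of Rps27rt in 9 of 14, and no member was called without T1, T90, T15 or T93, while 8 were called without T10. Without the 9 Cdh16 libraries, which left 1 library in each KO group, the values were 0.60 and 0.51 and neither was called (adjusted p = 1.0). Without the 4 Alb or Car3 libraries Rps27rt was still called (adjusted p = 0.0326) and Rpl31 was not (adjusted p = 0.0763). The median over the 83 genes was 0.38, 82 were positive, and 75 had an unadjusted p below 0.05, compared with 9.16% of all tested genes. DESeq2 called 47 members, all higher (0.63% of the genes it tested higher, 0.402% lower), and limma-voom called 3.

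**Figure D4:**
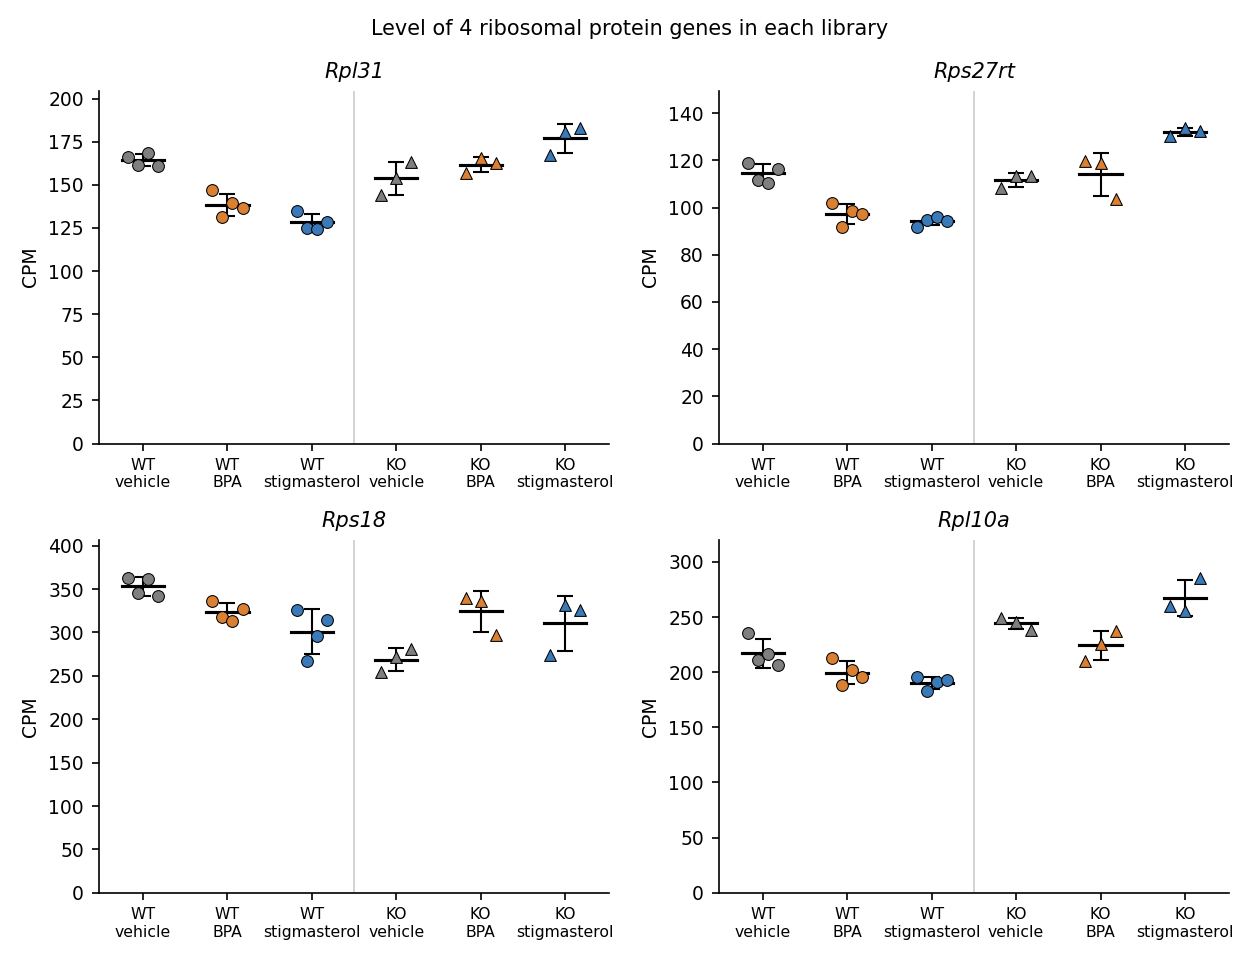
CPM of Rpl31, Rps27rt, Rps18 and Rpl10a in each library, by group, on axes that start at 0. Points are libraries, horizontal lines group means and bars SD. By group mean, Rpl31 and Rps27rt are lowest in WT stigmasterol (libraries 124.7 to 135.1 CPM and 91.82 to 96.05 CPM) and highest in KO stigmasterol. The WT BPA library T75 lies as low, at 131.4 CPM for Rpl31 and 91.8 CPM for Rps27rt. The group mean of Rps18 is lowest in KO vehicle (libraries 254 to 280.6 CPM).

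For BPA the interaction called no member (0.0148% of all tested genes called, 0.00494% of all tested genes higher, 0.00987% lower). The median was 0.22 with 82 of 83 positive, and 44 had an unadjusted p below 0.05, compared with 8.83% of all tested genes. DESeq2 (0.0198% of the genes it tested higher, 0.0198% lower) and limma-voom called 0. The members with the smallest p were Rpl31 (0.32, SE 0.0751), Rps18 (0.40, SE 0.105) and Rpl9 (0.33, SE 0.0912), all at an adjusted p of 0.536.

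Averaged over the 3 treatments, 11 members were higher in KO and none was lower (6.85% of all tested genes higher, 7.07% lower). This is 13.3% of the members, beside 13.9% of all tested genes called in either direction, so the share of members called was near that of the table. DESeq2 called 12 members (7.96% of the genes it tested higher, 9.1% lower) and limma-voom 11. No member separated the 12 WT from the 9 KO libraries without overlap (0.434% of all tested genes higher, 0.617% lower). The median log2 fold change over the 83 genes was 0.03. The 11 called members included Rpl10a, Rps27, Rps27rt, Rps26, Rpl31, Rps21, Rps20, Rpl37a, Rps15 and Rpl37. Under vehicle alone, the KO group mean was above the WT mean for Rpl10a (244.2 against 217.2 CPM) and Rps26 (178.6 against 167.9 CPM). It was level for Rps27 (79.74 against 79.04 CPM). For Rpl31 (153.8 against 164.3 CPM), Rps27rt (111.8 against 114.5 CPM), Rps21, Rps20, Rpl37a, Rps15 and Rpl37 it was below. The averaged difference of these genes was therefore not present without exposure.

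Rpl10a had the smallest adjusted p of the members. It ranged from 182.5 to 235.8 CPM (median 198.6) in 12 WT libraries and from 210.4 to 285.8 CPM (median 245.2) in 9 KO libraries, a log2 difference of 0.28 (SE 0.0342, adjusted p = 2.47e-05). The genotypes overlapped, since the KO BPA libraries T25 and T83 lay below the WT vehicle library T66. Rps27 had a median of 65.01 CPM in WT and 81.59 CPM in KO (0.27, SE 0.0406, adjusted p = 0.000236), and Rps27rt had 97.94 and 118.8 CPM (0.23, SE 0.0306, adjusted p = 6.51e-05). Because Rps27rt shares nearly all its sequence with Rps27, these are not 2 independent results.

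Rpl31 had a median of 138 CPM in WT and 163.4 CPM in KO (0.20, SE 0.0306, adjusted p = 0.000291), and Rps26, at the mRNA exit channel, had 157.7 and 180.4 CPM (0.21, SE 0.0506, adjusted p = 0.0111). Rpl10a, Rps27, Rps27rt, Rpl31, Rps26 and Rps20 were called in all 21 fits that left out 1 library, and Rpl37a, Rps15 and Rpl37 in 15, 10 and 7 of them. Without the 9 Cdh16 libraries only Rps27 (adjusted p = 0.0317) and Rps27rt (adjusted p = 0.0479) were still called among the 83, and Rpl10a (0.21, adjusted p = 0.133) and Rpl31 (0.18, adjusted p = 0.163) were not. Of epididymal markers 8 of 10 tested genes rose in the same comparison and of fat markers 5 of 6. Of Sertoli markers 7 of 15 fell (14 negative, median -0.31), and of 21 meiotic markers 19 had positive values (median 0.37), 1 of them called. The part of these cells in the members' values was not tested.

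The 2 subunits had like medians. In WT stigmasterol testis the median log2 fold change was -0.23 for the 51 large and -0.23 for the 32 small subunit genes, and in KO vehicle testis it was -0.16 for both. The 4 X-linked genes had medians of -0.25 and -0.26 in these 2 comparisons. Of the copies, Rpl10l moved least, with log2 fold changes of 0.02, -0.07 and -0.02 for KO, BPA and stigmasterol against WT vehicle, none of which passed the test. Leaving out 1 library moved these values between -0.11 and 0.07, -0.19 and -0.02, and -0.13 and 0.07, so the direction of the first and the last is not settled.

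The authors' deposited table of their own 4 comparisons gives nearly the same fold changes with more calls. For BPA in WT the authors' deposited table has 22 members with an adjusted p below 0.05, all lower (1.94% of all genes lower, 1.02% higher), and for stigmasterol in WT it has 7, all lower (0.0337% lower, 0.00306% higher). Among those in the authors' deposited table were Rps7, Rps14, Rpl36, Rpl31, Rps27rt and Rps27. For both KO comparisons the authors' deposited table has no member below 0.05 (0.0306% of all genes higher and 0.0245% lower for BPA, 0.0153% and 0.0% for stigmasterol).

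Other genes of the translation machinery were taken from lists of known factors. Ribosomal protein genes that the naming rule leaves out (such as Rps27a, Fau, Rps3a1 and Rpl7l1, with 5 of 6 listed names tested) had median log2 fold changes of -0.14, -0.17 and -0.25 for KO, BPA and stigmasterol against WT vehicle, close to those of the members. None of the 5 was called in these 3 comparisons.

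Translation factors and other messages with a terminal pyrimidine tract (22 of 24 tested) had medians of -0.16, -0.06 and -0.13 in the same 3 comparisons. In KO vehicle testis 2 of them fell, the elongation factor subunit Eef1d (-0.25, SE 0.0648, adjusted p = 0.0433) and the initiation factor subunit Eif3k (-0.25, SE 0.0623, adjusted p = 0.0363), and none rose. For stigmasterol in KO all 22 had positive log2 fold changes, with a median of 0.12, and none was called.

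Nuclear genes of the mitochondrial ribosome (77 of 78 tested) had medians of -0.10, -0.18 and -0.10. In KO vehicle testis 4 of them fell and none rose, among them Mrps12 (-0.61, SE 0.102, adjusted p = 0.00196) and Mrps23 (-0.41, SE 0.0822, adjusted p = 0.0103). For stigmasterol in KO, where the cytosolic genes had a median of 0.14, the mitochondrial ribosome genes had 0.01.

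Genes that make ribosomes rather than form them had medians near 0 in these comparisons. Ribosome biogenesis factors (52 of 54 tested) had medians of 0.03, -0.02 and 0.02, subunits and factors of RNA polymerase I, which transcribes rRNA (15 tested), had 0.01, 0.03 and 0.00, and regulators of pyrimidine-tract messages such as mTOR, Larp1 and Myc (19 tested) had -0.02, -0.04 and 0.03. None of these genes was called in the 3 comparisons with WT vehicle. Averaged over treatments, where 13.9% of all tested genes were called, 2 of the 19 regulators were lower in KO, Mycn (-0.23, SE 0.0599, adjusted p = 0.0146) and Larp1 (-0.11, SE 0.0339, adjusted p = 0.0304). In the same comparison 2 of the 15 polymerase I genes were higher, Polr1b and Taf1d, and of the 52 biogenesis factors 2 were higher and 4 lower.

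Transcript length moved with the same comparisons. Among tested protein-coding genes outside the group with a mean above 1 CPM, the 251 genes under 0.5 kb had median log2 fold changes of -0.06, -0.13 and -0.09 for KO, BPA and stigmasterol against WT vehicle, and the 980 genes over 5 kb had 0.09, 0.12 and 0.11. The members' medians were lower in each length class they occupy, of which the shortest and the longest hold few members. They were -0.10, -0.26 and -0.27 for the 14 under 0.5 kb, -0.18, -0.18 and -0.23 for the 60 from 0.5 to 1 kb, and -0.09, -0.08 and -0.17 for the 9 from 1 to 2 kb. With the length trend of each library removed, the medians of all members were -0.111, -0.112 and -0.178, and 0.307 for the stigmasterol interaction. The part of RNA integrity or fragment selection in this trend was not tested.

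**Figure D5:**
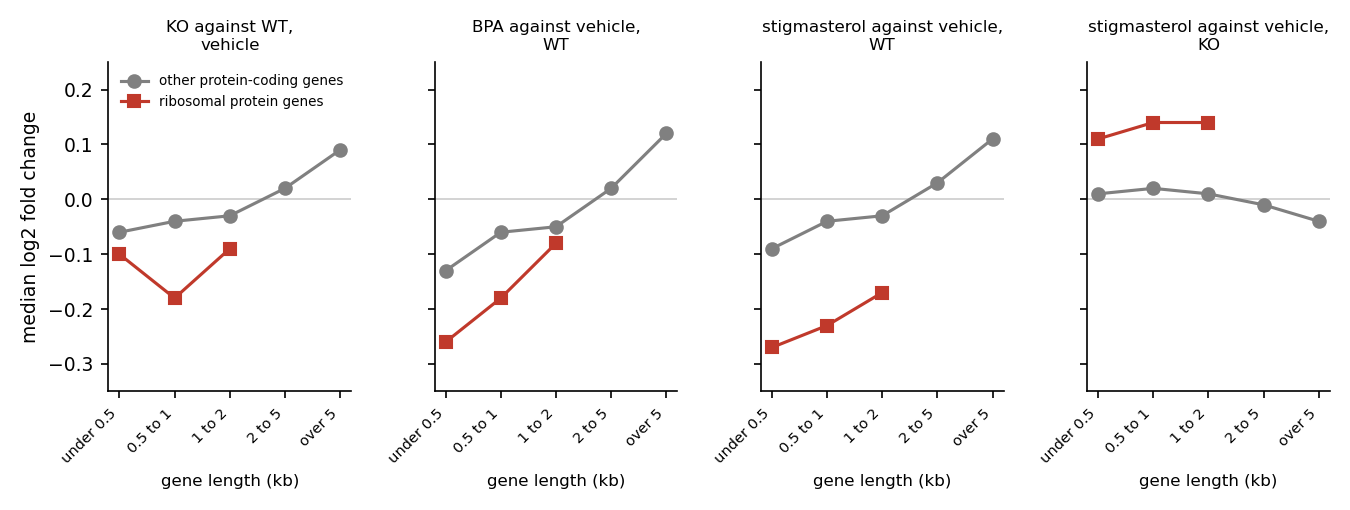
Median log2 fold change by gene length class in 4 comparisons, for the ribosomal protein genes (red squares, 14, 60 and 9 genes in the 3 shortest classes) and for other protein-coding genes (grey circles, 251 to 5493 genes per class). Short genes are lower than long ones in the 3 comparisons with WT vehicle, and the members lie below the other genes of their length there and above them for stigmasterol in KO.

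Ribosomal protein genes have many processed pseudogenes, which makes their counts depend on how reads with several matches were treated. The share of 50-base windows of a member's transcripts (GENCODE vM21) that also occurred in transcripts of other genes was over 10% in 66 members and over 50% in 6: Rps27rt, Rpl36, Rplp1, Rpl19, Rpl24 and Rpl23a. Named pseudogenes of this family (216 in the table, 38 tested) together took 0.00231% to 0.00862% of the reads of a library. For Rpl31 the share of windows found elsewhere was 18.7%, for Rpl10a 20.8% and for Rps18 19.0%.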

How the data were processed

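Testis RNA libraries (Illumina TruSeq RNA, per the labels' protocols) from 21 animals were analysed. Per the submitters' processing notes, CASAVA 1.8.2, TopHat2 2.0.10, Bowtie and Bowtie2 2.1.0 were used with build mm10; the sources used here do not give the counting program or the treatment of reads with several matches. Per the file headers, the authors deposited raw read counts, normalized counts, normalized counts divided by gene length in kb (a signal), and, for 4 comparisons, log2 ratios with p-values rounded to 2 decimals.

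Raw counts were tested with edgeR 4.0.16 (TMM, filterByExpr with a count minimum of 10 and total minimum of 15, quasi-likelihood F test, 1 mean per group over all 6 groups, Benjamini-Hochberg over 20254 genes, two-sided, 0.05); the biological coefficient of variation was 19.2%. The method was also run on simulated counts with 1 spread for all genes, set below 19.2%, and with changes in KO vehicle only. The outcome is not given here and does not bear on the calls. CPM are TMM-scaled, and standard errors were derived from the estimate and its F statistic (absolute value over root F). DESeq2 1.42.0, limma 3.58.1 (voom) and other settings were alternatives. Animal numbers were not shared between groups. Whether animals of a group were littermates is not given, so p-values measure only the spread between these libraries.

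The members and lists were chosen with earlier results of these data known. Members named with values were X-linked genes, paralog pairs, stalk genes and Rpsa, the 4 highest and 4 lowest per kb, and per comparison the 5 highest and 5 lowest called log2 fold changes or, with none called, the 3 smallest p. Rps7 and Rps14 and the other genes of the authors' calls, Rpl4, Rps9 and Rps21 were named after their values were seen. Starts came from RefSeq, GRCm38.p6. Protein sequences were not used here. Some results that the rule would name are not reported here.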

Additional observations from a re-analysis of the deposited data

Results flagged for a closer look

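Rpl31 and Rps27rt are listed because their response to stigmasterol differed between the genotypes in the test of the difference itself: the log2 difference was 0.56 for Rpl31 (adjusted p = 0.012) and 0.52 for Rps27rt (adjusted p = 0.0151, edgeR), lower under stigmasterol in 4 of 4 WT libraries and higher in 3 of 3 KO libraries than in any vehicle library of the same genotype. In 4 cases, all in the WT vehicle group, 1 library lay far from the other 3. Rpl10l had 24 CPM in T81 against 34 to 34.9 CPM in the others. Rpl13a had 1020 CPM in T66 against 898 to 914 CPM. Rpl22 had 325 CPM in T66 against 261 to 268 CPM. Rpl36a had 133 CPM in T71 against 159 to 164 CPM. They came from 114 groups of 4 values, of which chance alone flags about 1 in 20.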

How the results depend on the processing

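No paired analysis was possible because no animal number recurs between groups. The medians over members, and the log2 fold changes of the members named by a call or a smallest p, kept their direction under the alternatives run; other single members were only refitted leaving out 1 library, where some values near 0, those of Rpl10l among them, changed sign. Counts of called members moved. For fits other than the main edgeR fit and DESeq2, the share of all tested genes called is not given here. Those counts therefore do not show whether calls moved in the members or over all genes. For KO against WT under vehicle (4 called) edgeR called 2 without the low-count filter, 1 with only the 2 groups fitted, 0 without the 9 Cdh16 libraries, 1 without the 4 Alb or Car3 libraries and 1 with the length trend removed, and DESeq2 called 22; leaving out 1 library gave 0 (without T1) to 3. Averaged over treatments (11 called) the counts were 7 without the filter, 2 without the Cdh16 and 4 without the Alb or Car3 libraries, and 7 to 15 leaving out 1 library. For BPA in WT (0 called) DESeq2 called 35, and leaving out 1 library gave 0 to 22, the latter without T79 and 15 without T60; the median of -0.19 became -0.112 with the length trend removed. For stigmasterol in WT (1 called) the count was 0 without the filter, with only the 2 groups, without the Cdh16 libraries, without the Alb or Car3 libraries and with the length trend removed, DESeq2 called 30, and leaving out 1 library gave 0 to 1. For the stigmasterol interaction (2 called) it was 0 without the filter, with only the 4 groups and without the Cdh16 libraries, 1 without the Alb or Car3 libraries, 47 by DESeq2 and 0 to 8 leaving out 1 library; its median of 0.38 became 0.307 with the length trend removed, and that of the BPA interaction went from 0.22 to 0.143. The lone KO library per group left without the Cdh16 libraries is assumed to vary like the other groups. Removal of the Alb or Car3 libraries and of the length trend was chosen after seeing the data. Fewer libraries or groups leave fewer degrees of freedom; the other causes were not tested. The effect of depth was not tested; Rpl3l had the fewest reads, 41 to 182 per library.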
